A study of Mus musculus with 28 samples.

Results

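The CDK inhibitors and the Rb family were described here in 7 doxycycline-inducible mouse embryonic stem cell (mESC) lines. The 10 genes were taken by symbol from the deposited expression table, whatever their values: the CIP/KIP inhibitors Cdkn1a, Cdkn1b and Cdkn1c, the INK4 inhibitors Cdkn2a, Cdkn2b, Cdkn2c and Cdkn2d, and the pocket proteins Rb1, Rbl1 and Rbl2. They are 10 of the 19421 genes in that table and of the 16837 that were tested. All 10 were tested, and none was at 0 in any library.

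All lines derive from the parental line A2loxCre, in which a cassette behind a doxycycline-responsive promoter carries the factors joined by 2A peptides and ends in the fluorescent protein mVenus. The lines express Atoh1 (iAtoh1), Gfi1 (iGfi1), Pou4f3 (iPou4f3), Gfi1 with Atoh1 (iG+A), Gfi1 with Pou4f3 (iG+P), Pou4f3 with Atoh1 (iP+A) or all of them (iGPA). Cells grew as embryoid bodies (EBs) without LIF. In the Dox groups 2 µg/ml of doxycycline was given for 48 h from day 4 and Venus+ cells were sorted at day 6, whereas the untreated groups of the same lines were whole, unsorted EBs at day 6. Each of the 14 groups holds 2 libraries of bulk RNA from different clones. There is no line with Venus alone, so that within a line the effects of Dox, of sorting and of the factors cannot be told apart, whereas in a difference of Dox effects between lines whatever Dox and sorting do alike in both lines cancels.

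Cells commit to division when cyclin-dependent kinases phosphorylate the pocket proteins, which then release E2F factors and with them the genes of DNA replication. INK4 proteins bind CDK4 and CDK6 and keep D cyclins away from them, while CIP/KIP proteins bind cyclin-CDK complexes, foremost those of CDK2. In the inner ear, Cdkn1b is known for the timed exit from the cell cycle of the hair cell (HC) progenitors, Cdkn2d and Cdkn1a for keeping HCs from dividing again, and Rb1 for the same in HCs and in many neurons. Atoh1 is a bHLH activator that binds E-boxes, Gfi1 a zinc finger repressor, and Pou4f3 a POU homeodomain factor, and all are needed for HCs.

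Levels are given as normalized counts of replicates 1 and 2, in that order, and fold changes as differences of log2(normalized count + 1), a scale that understates the change of genes with few counts. Normalized counts are not scaled for transcript length, so levels are compared only within a gene. A gene was called, and is said to have risen or fallen, at a limma p under 0.05 after Benjamini-Hochberg adjustment over all genes tested. Estimated depth was 30.3 to 48.0 M reads per library. In iGPA the transgenes rose by 7.62 (Atoh1), 6.95 (Gfi1) and 7.86 (Pou4f3) on the log2 scale, and across lines each rose by at least 6.51 wherever its cassette was present. Dox cells of iPou4f3 had 4694 and 5381 normalized counts of Pou4f3, against 10870 to 19880 in the other lines that carry it. Some lines compared below as differing by 1 factor thus also differed in the level of Pou4f3. Each factor also rose in lines without its cassette, Gfi1 by 1.55 in iPou4f3 and 1.65 in iP+A, Atoh1 by 2.04 in iGfi1 and 2.70 in iG+P, and Pou4f3 by 2.21 in iAtoh1 and 3.11 in iG+A. Levels there stayed low, for example 85.9 to 113 normalized counts of Gfi1, against 8119 to 12490 in Dox cells of the lines that carry it.

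Of the 10 genes, 7 were called in iGPA (5 rose and 2 fell), where 46.0% of all genes tested were called (23.7% upward and 22.3% downward). In iG+A 6 were called (3 rose, 3 fell) against 41.3% of all genes (21.6% and 19.7%), in iG+P 5 (3 rose, 2 fell) against 33.8% (16.9% each way), and in iGfi1 4 (3 rose, 1 fell) against 26.5% (12.4% and 14.1%). Cells of iP+A had 2 called genes (1 rose, 1 fell) against 24.9% (13.8% and 11.1%), and iAtoh1 1, which rose, against 23.1% (11.4% and 11.7%). In iPou4f3 limma called 0 of 10 (1 at an unadjusted p under 0.05), where 4.72% of all genes were called (3.41% and 1.31%). Over the 70 pairs of a gene and a line, 25 were called, 16 upward and 9 downward.

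In 4 of these pairs the log2 fold change was also at least 1.5 in size, the threshold that the study added, and these were Cdkn2b and Cdkn2c, each in iG+A and iGPA. That threshold was passed by 14% of all genes in iGPA, 12.3% in iG+A and 10.5% in iG+P, and by 7.29% in iP+A, 5.4% in iAtoh1, 4.82% in iGfi1 and 2.08% in iPou4f3. With the replicate number as a block, 2 of the 10 genes were called in iAtoh1, 6 in iGfi1, 1 in iPou4f3 and 7 in iG+A, and as many as before in the other lines. In a fit of only the groups compared, with far fewer libraries behind the spread, the calls of Cdkn2b in iAtoh1, Cdkn2d and Rbl2 in iGfi1, Cdkn1a, Cdkn2d and Rbl1 in iG+A, Cdkn1a in iP+A and Rbl1 in iGPA were lost (limma adjusted p from 0.0517 to 0.103), and Cdkn1a in iGfi1 (limma adjusted p = 0.0397) and Cdkn1c in iGPA (limma adjusted p = 0.0324) were called.

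**Figure D1:**
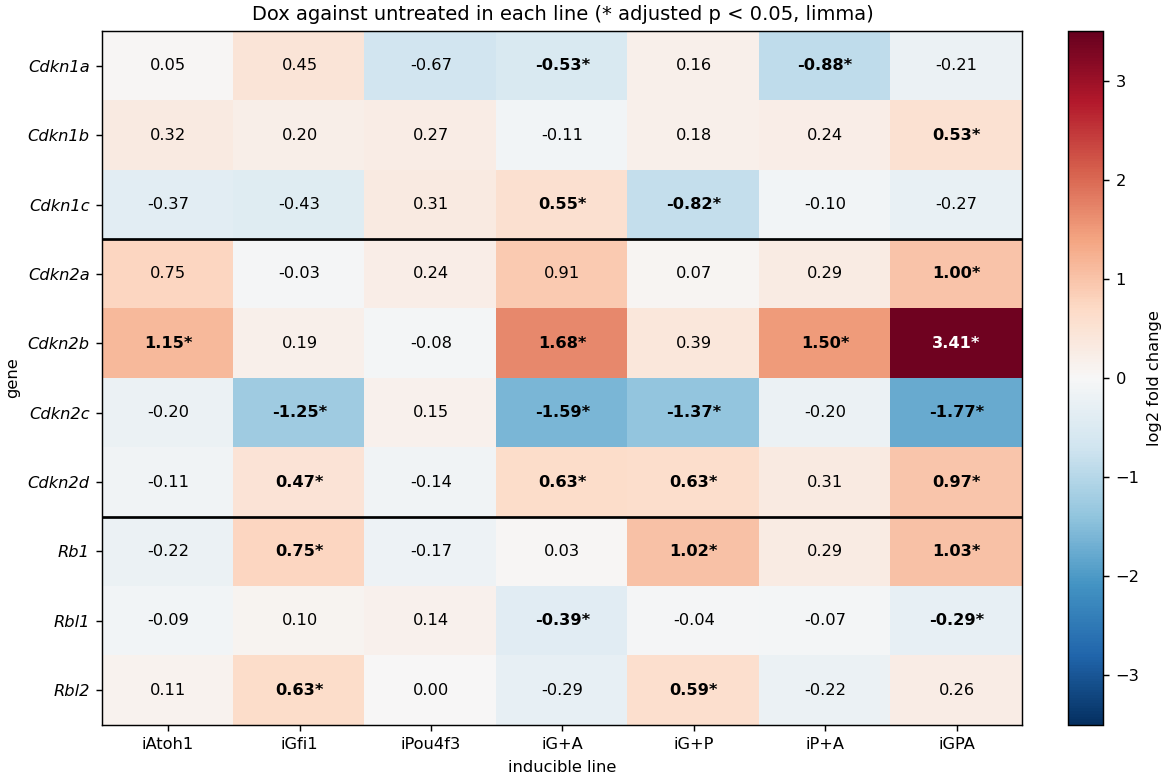
Log2 fold change of Dox against untreated for the 10 genes (vertical axis) in the 7 lines (horizontal axis), with the value printed in each cell, red for higher and blue for lower with Dox, and an asterisk at a limma adjusted p under 0.05. Cdkn2b is red in the 4 lines with Atoh1, reaching 3.41 in iGPA, and Cdkn2c is blue in the 4 lines with Gfi1, from -1.25 to -1.77.

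Among the INK4 genes, Cdkn2b encodes p15Ink4b, an inhibitor of CDK4 and CDK6 known as a target of TGF-beta signalling. It is annotated on chromosome 4 from 88952198 to 88956941 on the minus strand of NCBIM37 (Entrez 12579). The region around its start is shown because Cdkn2b moved most of all 10 genes, and it is the RefSeq promoter entry (250 bases before to 50 after the start, table build GRCm38.p6), found again by a unique exact match in NCBIM37. Capitals mark its only E-box, CANNTG read on both strands, the general motif of bHLH factors:
Cdkn2b promoter, chr4:88956892-88957191, minus strand: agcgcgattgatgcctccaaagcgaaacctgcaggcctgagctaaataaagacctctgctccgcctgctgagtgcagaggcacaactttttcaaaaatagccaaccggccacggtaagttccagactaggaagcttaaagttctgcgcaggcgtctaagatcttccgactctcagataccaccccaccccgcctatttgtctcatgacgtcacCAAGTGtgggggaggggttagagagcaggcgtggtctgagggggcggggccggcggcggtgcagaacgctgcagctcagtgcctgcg
CANNTG occurs in 72.31% of all 32851 promoter entries of this length, and the window held no match to the narrower E-box CAGCTG, to AAATCA, a core bound by Gfi1, or to ATTAAT, a core that POU4 factors recognise.

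With Dox, iGPA cells had 290 and 321 normalized counts of Cdkn2b, against 35.8 and 21.6 in untreated EBs of the line. In iP+A the values were 236 and 225 with Dox and 72.3 and 90.9 without, and in iG+A 141 and 179 with Dox and 58.0 and 41.5 without. In each of these lines both Dox libraries lay above both untreated ones. In iAtoh1 they were 89.5 and 96.5 with Dox and 47.9 and 35.9 without, again with no overlap.

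The lines without Atoh1 had low levels of Cdkn2b in every library. With Dox, iG+P had 27.5 and 39.0 normalized counts (23.5 and 26.1 untreated) and iGfi1 59.9 and 54.6 (53.1 and 47.0). In iPou4f3 there were 70.3 and 68.4 with Dox and 71.1 and 75.8 without. Across lines, the 8 Dox libraries with Atoh1 had 89.5 to 321 normalized counts of Cdkn2b (median 202) and the 6 Dox libraries without it 27.5 to 70.3 (median 57.2), which do not overlap, while the 14 untreated libraries had 21.6 to 90.9. The share of all genes separated in such a way was not counted, here or for the genes below.

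Cdkn2b rose by 3.41 ± 0.26 (SE) on the log2 scale in iGPA, which is 10.6-fold (limma adjusted p = 9.75e-09), by 1.68 ± 0.26 in iG+A (limma adjusted p = 5.77e-05), by 1.495 ± 0.26 in iP+A (limma adjusted p = 0.000355) and by 1.15 ± 0.26 in iAtoh1 (limma adjusted p = 0.00389). The call in iAtoh1 was lost without replicate 2 of its untreated EBs (0.94, limma adjusted p = 0.0504). In iG+P, iGfi1 and iPou4f3 the fold changes were 0.39, 0.19 and -0.08, with limma adjusted p of 0.275, 0.629 and 0.911. The difference of Dox effects between lines whose cassettes differ by Atoh1 was 2.03 ± 0.21 (limma adjusted p = 1.58e-06). It was averaged over iG+A minus iGfi1, iP+A minus iPou4f3 and iGPA minus iG+P. For Gfi1 (iG+A minus iAtoh1, iG+P minus iPou4f3, iGPA minus iP+A) the mean difference was 0.97 ± 0.21 (limma adjusted p = 0.00162). For Pou4f3 (iP+A minus iAtoh1, iG+P minus iGfi1, iGPA minus iG+A) it was 0.76 ± 0.21 (limma adjusted p = 0.0262). In both of these means the pair with iGPA differed most. For Gfi1 that pair had 3.41 against 1.495, beside 1.68 against 1.15 and 0.39 against -0.08. For Pou4f3 it had 3.41 against 1.68, beside 1.495 against 1.15 and 0.39 against 0.19. The SE does not measure this spread between pairs.

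Untreated levels of Cdkn2b were lower in iGPA than in iP+A. As an alternative chosen after seeing the data, all 14 untreated libraries were taken as one control group. That control cancels in a difference between lines, which with it, here and below, compares Dox cells with Dox cells. Such a difference keeps whatever differs between the lines before Dox. For Atoh1 the mean difference was then 2.12, for Gfi1 0.04 (limma adjusted p = 0.928) and for Pou4f3 0.48 (limma adjusted p = 0.274). Against that control the rise was 2.71 in iGPA (limma adjusted p = 2.45e-06), 2.31 in iP+A (limma adjusted p = 4.60e-05) and 1.01 in iAtoh1 (limma adjusted p = 0.0484). The call for Pou4f3 was also lost when any 1 of 9 libraries was left out, with limma adjusted p up to 0.0572. Those libraries were the Dox replicate 1 of iP+A and replicate 2 of iG+P and iGPA, and the untreated replicate 1 of iAtoh1, iGfi1, iG+A, iG+P and iP+A and replicate 2 of iGPA.

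Cdkn2c encodes p18Ink4c, which also binds CDK4 and CDK6. It lies on chromosome 4 from 109333481 to 109339794 on the minus strand (Entrez 12580), apart from the Cdkn2a and Cdkn2b locus. Its promoter entries are shown because Cdkn2c had the largest difference with Gfi1 of the 10 genes, with capitals for matches to CANNTG or to ATTAAT:
Cdkn2c start 1, chr4:109339312-109339611, minus strand: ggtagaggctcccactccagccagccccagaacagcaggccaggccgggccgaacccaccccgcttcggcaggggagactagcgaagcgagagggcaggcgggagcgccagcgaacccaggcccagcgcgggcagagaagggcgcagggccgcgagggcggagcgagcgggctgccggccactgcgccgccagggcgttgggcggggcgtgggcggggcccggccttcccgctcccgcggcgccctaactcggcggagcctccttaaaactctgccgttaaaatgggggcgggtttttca
Cdkn2c start 2, chr4:109337928-109338227, minus strand: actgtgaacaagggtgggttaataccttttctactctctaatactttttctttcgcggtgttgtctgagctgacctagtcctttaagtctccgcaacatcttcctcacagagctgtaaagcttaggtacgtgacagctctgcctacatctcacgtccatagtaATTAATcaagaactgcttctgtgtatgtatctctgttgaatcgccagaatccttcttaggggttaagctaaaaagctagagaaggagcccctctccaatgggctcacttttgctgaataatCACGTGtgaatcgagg
Start 1 held no match to any motif searched. Start 2 held 1 CANNTG and 1 ATTAAT, the latter found in 4.75% of all entries. The Gfi1 core AAATCA, on either strand, occurred in 14% of all entries and in neither of these windows.

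Cdkn2c had 31.7 and 34.3 normalized counts in iGPA Dox cells and 102 and 129 in untreated EBs. In iG+A there were 37.2 and 43.9 with Dox and 143 and 108 without, and in iG+P 30.4 and 41.1 with Dox and 83.9 and 103 without. In iGfi1 the Dox libraries had 66.7 and 49.4 and the untreated ones 126 and 150. In all 4 lines with Gfi1 both Dox libraries were therefore below both untreated ones.

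In lines without Gfi1 the Dox and untreated values of Cdkn2c lay close together. They were 68.5 and 104 with Dox and 85.0 and 112 without in iAtoh1, 151 and 140 with Dox and 140 and 123 without in iPou4f3, and 114 and 141 with Dox and 175 and 122 without in iP+A. Over all lines, the 8 Dox libraries with Gfi1 had 30.4 to 66.7 normalized counts, the 6 without it 68.5 to 151 and the 14 untreated libraries 83.9 to 175. The 8 thus lay below every other library, although the gap to the lowest of the 6 was narrow.

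The fall of Cdkn2c was -1.77 ± 0.27 (SE) on the log2 scale in iGPA (limma adjusted p = 3.38e-05), that is to 0.294 of the untreated level. It was -1.59 ± 0.27 in iG+A (limma adjusted p = 0.000137), -1.37 ± 0.27 in iG+P (limma adjusted p = 0.00062) and -1.25 ± 0.27 in iGfi1 (limma adjusted p = 0.00245). In iAtoh1, iP+A and iPou4f3 the fold changes were -0.20, -0.20 and 0.15 and were not called. The mean difference for Gfi1 was -1.49 ± 0.22 (limma adjusted p = 3.94e-05), whereas those for Atoh1 and Pou4f3 were -0.37 and -0.10 (limma adjusted p = 0.227 and 0.836). All 4 calls held when any library was left out, and with the pooled untreated control the difference for Gfi1 was -1.66.

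Cdkn2d encodes p19Ink4d, the INK4 inhibitor known from postmitotic HCs and neurons. It is on chromosome 9 from 21092907 to 21095653 on the minus strand (Entrez 12581). Its promoter entry held none of the motifs searched, and is printed beside those of Cdkn2b and Cdkn2c because Cdkn2d moved the other way from Cdkn2c in the same lines:
Cdkn2d promoter, chr9:21095604-21095903, minus strand: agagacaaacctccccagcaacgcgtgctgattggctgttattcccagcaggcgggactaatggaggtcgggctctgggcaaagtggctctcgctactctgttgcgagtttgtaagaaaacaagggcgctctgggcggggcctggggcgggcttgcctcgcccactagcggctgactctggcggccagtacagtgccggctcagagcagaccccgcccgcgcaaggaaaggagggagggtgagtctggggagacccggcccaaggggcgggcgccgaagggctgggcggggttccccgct
The highest levels of Cdkn2d were in iGPA Dox cells, with 1083 and 1375 normalized counts against 572 and 675 untreated. In iG+A the values were 796 and 1042 with Dox and 657 and 525 without, in iG+P 757 and 745 with Dox and 427 and 554 without, and in iGfi1 736 and 647 with Dox and 516 and 483 without. The Dox libraries of these 4 lines did not overlap with their own untreated ones, and neither did those of iP+A, a line without Gfi1.

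Without Gfi1, Cdkn2d had 818 and 757 normalized counts with Dox, against 697 and 575 without in iP+A, 516 and 512 with Dox and 514 and 602 without in iAtoh1, and 580 and 617 with Dox and 714 and 606 without in iPou4f3. The rise was 0.97 ± 0.17 (SE) on the log2 scale in iGPA (limma adjusted p = 0.000123), 0.63 ± 0.17 in iG+A (limma adjusted p = 0.00584), 0.63 ± 0.17 in iG+P (limma adjusted p = 0.00726) and 0.47 ± 0.17 in iGfi1 (limma adjusted p = 0.0477), against 0.31, -0.11 and -0.14 in iP+A, iAtoh1 and iPou4f3. Between lines that differ by Gfi1 the mean difference was 0.72 ± 0.14 (limma adjusted p = 0.000475). Those for Atoh1 (0.32, limma adjusted p = 0.0867) and Pou4f3 (0.31, limma adjusted p = 0.175) were not called, although that for Atoh1 was without Dox replicate 1 of iG+A (limma adjusted p = 0.0391) or untreated replicate 1 of iG+P (limma adjusted p = 0.0462). Against the pooled untreated control both were called, at 0.50 for Atoh1 (limma adjusted p = 0.00106) and 0.39 for Pou4f3 (limma adjusted p = 0.0164), as was iP+A (0.45, limma adjusted p = 0.0168), whereas iG+P had 0.39 (limma adjusted p = 0.0357) and iGfi1 lost its call (0.27, limma adjusted p = 0.178). The call in iGPA held without any 1 library, that in iG+A was lost without untreated replicate 2 (limma adjusted p = 0.0778) or Dox replicate 2 (limma adjusted p = 0.0906), and that in iG+P without untreated replicate 1 (limma adjusted p = 0.125). The call in iGfi1 was close to the threshold and was lost without any of its own 4 libraries and 11 libraries of other lines, with limma adjusted p up to 0.264.

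Cdkn2a encodes p16Ink4a and, from another first exon and reading frame, p19Arf, which stabilises p53. The count of the gene sums both, so they cannot be told apart here. It is the neighbour of Cdkn2b, 11640 bp away, on chromosome 4 from 88920377 to 88940557 on the minus strand (Entrez 12578). In iGPA it had 282 and 329 normalized counts with Dox, against 124 and 187 without, a rise of 0.995 ± 0.38 (SE, log2; limma adjusted p = 0.0407) that was not called without untreated replicate 1 (0.70, limma adjusted p = 0.252), Dox replicate 1 (limma adjusted p = 0.0826) or Dox replicate 2 (limma adjusted p = 0.16). Quantile normalization lowered it to 0.64 (limma adjusted p = 0.176), and the call was also lost with no variance trend (limma adjusted p = 0.0505) and against the pooled untreated control (0.96, limma adjusted p = 0.111). In iG+A the Dox libraries stood apart from each other, with 153 and 403 against 138 and 125 untreated, and the fold change of 0.91 was not called (limma adjusted p = 0.0641). It was called without Dox replicate 1 (1.61, limma adjusted p = 0.00363) and with the replicate block (limma adjusted p = 0.0281).

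In iAtoh1 Cdkn2a had 305 and 248 normalized counts with Dox, against 200 and 132 without (0.75, limma adjusted p = 0.168). In iP+A the values were 323 and 443 with Dox and 252 and 376 without, in iPou4f3 281 and 287 with Dox and 284 and 205 without, and in iGfi1 206 and 139 with Dox and 182 and 164 without. The lowest levels by far were in iG+P, with 51.1 and 62.6 with Dox and 39.2 and 73.7 without. Fold changes in these 4 lines ran from -0.03 to 0.30, and no difference of Dox effects between lines was called for Cdkn2a. That for Atoh1 was called without Dox replicate 1 of iG+A (0.87, limma adjusted p = 0.0189) and against the pooled untreated control (1.13, limma adjusted p = 0.0224). With that control the difference for Gfi1 turned to -0.92 and was called (limma adjusted p = 0.0499), iG+P had -1.45 (limma adjusted p = 0.0212) in place of 0.07, and iP+A had 1.27 (limma adjusted p = 0.0473).

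**Figure D2:**
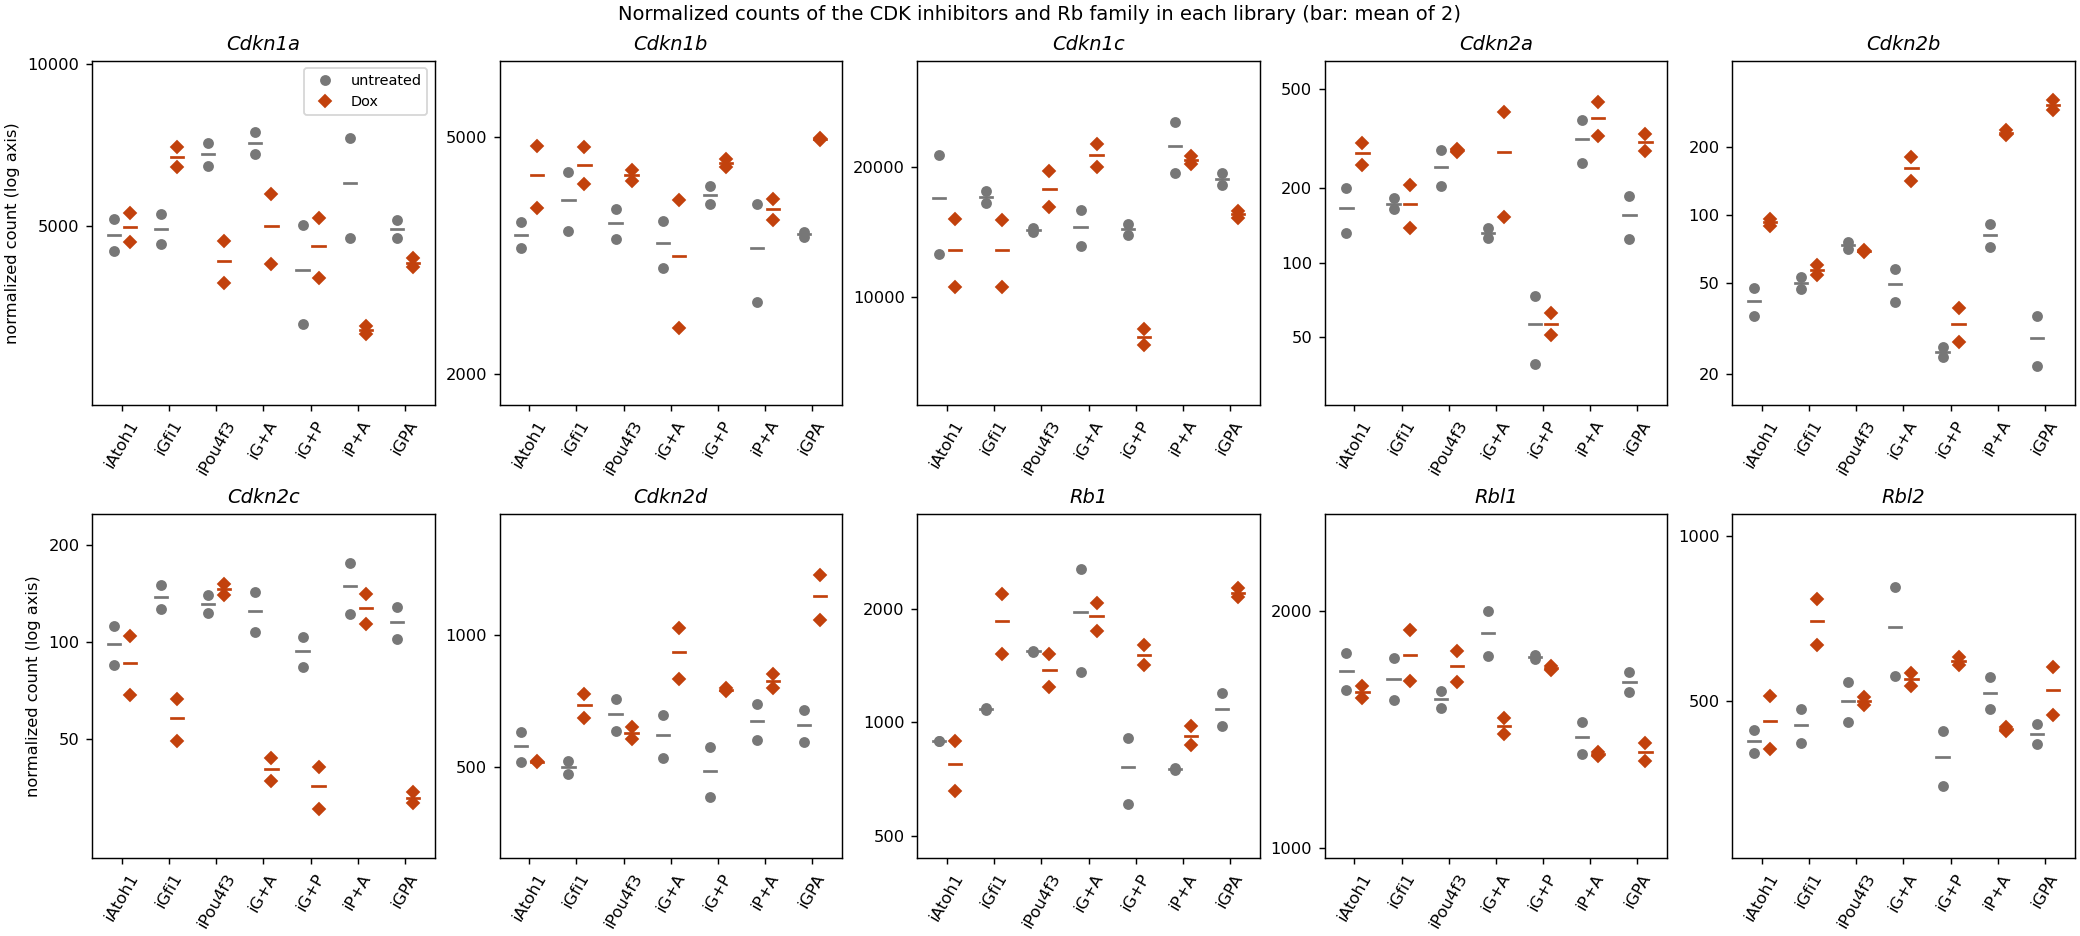
Normalized counts (log axis) of each of the 10 genes in one panel, by line, with grey circles for the 2 untreated libraries, orange diamonds for the 2 Dox libraries and a bar at the mean of each pair. In the Cdkn2b panel the orange diamonds of iGPA sit at 290 and 321 and the grey circles at 21.6 and 35.8, and in the Cdkn2c panel the orange diamonds of the 4 lines with Gfi1 sit between 30.4 and 66.7.

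Fold changes of the CIP/KIP genes ran from -0.88 to 0.55 on the log2 scale over all lines. Cdkn1a encodes p21Cip1, the best known p53 target among the inhibitors (Entrez 12575, chromosome 17, 29227924 to 29237667, plus strand). In iP+A it had 3250 and 3142 normalized counts with Dox, against 7273 and 4737 without, a fall of -0.88 ± 0.20 (SE, log2; limma adjusted p = 0.00298), which missed the threshold without untreated replicate 1 (-0.57, limma adjusted p = 0.0661). In iG+A it had 4249 and 5719 with Dox and 7469 and 6808 without (-0.53 ± 0.20, limma adjusted p = 0.0367), and this call was lost without either untreated library (limma adjusted p = 0.161 and 0.0678) or Dox replicate 1 (limma adjusted p = 0.307), with quantile normalization (-0.49, limma adjusted p = 0.0523), with no variance trend (limma adjusted p = 0.0555) and against the pooled untreated control (-0.13, limma adjusted p = 0.625). In both lines the Dox libraries were below the untreated ones.

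Dox libraries of iPou4f3 had 3903 and 4690 normalized counts of Cdkn1a, below the 7139 and 6459 of untreated EBs, and the fold change of -0.67 missed the threshold (limma adjusted p = 0.0602) but passed it with the replicate block (limma adjusted p = 0.0268) or without either replicate of iG+A Dox, untreated iG+P or untreated iP+A (limma adjusted p from 0.032 to 0.0482). The opposite order was seen in iGfi1, with 7010 and 6446 with Dox and 5253 and 4621 without (0.45, limma adjusted p = 0.101, or 0.0467 with the block). The other lines overlapped or lay close, with 5277 and 4670 with Dox and 4481 and 5140 without in iAtoh1, 3997 and 5162 with Dox and 3278 and 5007 without in iG+P, and 4352 and 4186 with Dox and 4740 and 5119 without in iGPA. The mean difference for Atoh1 was -0.52 ± 0.16 (limma adjusted p = 0.0192), but -0.32 and not called against the pooled untreated control (limma adjusted p = 0.118), with which that for Pou4f3 was called (-0.47, limma adjusted p = 0.0386). That for Gfi1 was 0.31 and was not called (limma adjusted p = 0.155), except without untreated replicate 2 of iG+P (0.41, limma adjusted p = 0.0421) or of iP+A (0.41, limma adjusted p = 0.0397).

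Cdkn1b encodes p27Kip1, an inhibitor held low in dividing cells by degradation (Entrez 12576, chromosome 6, 134870419 to 134875531, plus strand). It rose in iGPA, with 4940 and 4973 normalized counts with Dox, against 3400 and 3464 without (0.53 ± 0.19 SE, log2; limma adjusted p = 0.0293). Replicates agreed closely there, yet the call was lost without any 1 of these 4 libraries (limma adjusted p from 0.0892 to 0.1). In the other lines the fold changes ran from -0.11 to 0.32 and none was called, although iG+P was against the pooled untreated control (0.36, limma adjusted p = 0.0478). The Dox libraries of iG+A, with 3924 and 2393, spanned the untreated 3609 and 3020, and those of iPou4f3, with 4222 and 4409, were above the untreated 3377 and 3792.

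Cdkn1c encodes p57Kip2 and is an imprinted gene expressed from the maternal chromosome (Entrez 12577, chromosome 7, 150644255 to 150646955, minus strand). It fell in iG+P, from 13921 and 14748 normalized counts to 7769 and 8432 with Dox (-0.82 ± 0.21 SE, log2; limma adjusted p = 0.00474). It rose in iG+A, from 13106 and 15919 to 19995 and 22512 with Dox (0.55 ± 0.21, limma adjusted p = 0.0402), a call lost without untreated replicate 1 (limma adjusted p = 0.235), Dox replicate 1 (limma adjusted p = 0.067) or Dox replicate 2 (limma adjusted p = 0.173), with no variance trend (limma adjusted p = 0.0606) and against the pooled untreated control (0.36, limma adjusted p = 0.126). The same gene thus moved in opposite directions in these 2 lines.

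Elsewhere Cdkn1c was not called. In iAtoh1 the untreated replicates were far apart, at 12546 and 21277, with 10549 and 15141 with Dox (-0.37, limma adjusted p = 0.215), and the call was made without untreated replicate 1 (-0.75, limma adjusted p = 0.0214) or with the replicate block (limma adjusted p = 0.0271). In iGfi1 it had 10546 and 15093 with Dox and 16524 and 17596 without (-0.43, limma adjusted p = 0.134), and was called without Dox replicate 2 (-0.69, limma adjusted p = 0.0445) or with the block (limma adjusted p = 0.0116). Lines iPou4f3, iP+A and iGPA had fold changes of 0.31, -0.10 and -0.27. With the block, the mean differences for Atoh1 (0.38, limma adjusted p = 0.00723) and Pou4f3 (-0.31, limma adjusted p = 0.0388) were also called, and that for Atoh1 was called without either untreated replicate of iAtoh1 or Dox replicate 2 of iGfi1 (limma adjusted p from 0.0416 to 0.0477), after quantile normalization (0.47, limma adjusted p = 0.0323) and against the pooled untreated control (0.64, limma adjusted p = 0.00116).

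Rb1, the retinoblastoma protein, binds the activating E2F factors (Entrez 19645, chromosome 14, 73583480 to 73725629, minus strand). In iGPA it had 2148 and 2272 normalized counts with Dox, against 977 and 1200 without. There were 1421 and 1604 with Dox and 609 and 910 without in iG+P, and 2199 and 1519 with Dox and 1079 and 1092 without in iGfi1. In these 3 lines the Dox libraries lay above the untreated ones.

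The fourth line with Gfi1, iG+A, had Dox levels of Rb1 in the same range, 2074 and 1750, but untreated levels of 2558 and 1360, of which the first was the highest of all 28 libraries. Without that library its fold change was 0.49 (limma adjusted p = 0.124), and with it 0.03 (limma adjusted p = 0.931), whereas against the pooled untreated control it was 0.82 and called (limma adjusted p = 0.0358). In lines without Gfi1 the values were 890 and 658 with Dox and 891 and 890 without in iAtoh1, 1242 and 1516 with Dox and 1552 and 1539 without in iPou4f3, and 976 and 869 with Dox and 747 and 755 without in iP+A. The 8 Dox libraries with Gfi1 had 1421 to 2272 normalized counts of Rb1 and the 6 without it 658 to 1516, which overlap by 1 library of iPou4f3.

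Rb1 rose by 1.03 ± 0.24 (SE) on the log2 scale in iGPA (limma adjusted p = 0.00177), 2.04-fold, by 1.02 ± 0.24 in iG+P (limma adjusted p = 0.00267) and by 0.75 ± 0.24 in iGfi1 (limma adjusted p = 0.0265). The call in iGPA held without any 1 library. The call in iG+P was lost without untreated replicate 1 (0.73, limma adjusted p = 0.0655), and against the pooled untreated control the value was 0.49 (limma adjusted p = 0.226). The call in iGfi1 was lost without either untreated replicate (limma adjusted p = 0.103 and 0.102) or Dox replicate 1 (0.48, limma adjusted p = 0.282), and against the pooled untreated control (0.76, limma adjusted p = 0.074). The mean difference for Gfi1 was 0.72 ± 0.20 (limma adjusted p = 0.00735), and it was called whichever library was left out, with values from 0.57 to 0.88. The mean difference for Pou4f3 was 0.59 (limma adjusted p = 0.0588), and it was called with the block (limma adjusted p = 0.0172) or without untreated replicate 2 of iG+A (0.74, limma adjusted p = 0.00596), untreated replicate 2 of iG+P, Dox replicate 1 of iAtoh1 or Dox replicate 1 of iGfi1, but was 0.07 against the pooled untreated control.

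Exons of Rb1 overlap those of Rcbtb2 by 488 bases and those of Lpar6 by 408 bases on the opposite strand, and no strand setting of the authors' counting was given in the sources used here. Lpar6 fell in the 4 lines with Gfi1, from -0.96 in iG+A to -2.66 in iG+P on the log2 scale, and also in iP+A (-0.56), so that in iGPA, iG+P and iGfi1 it moved the other way from Rb1. Rcbtb2 fell in iG+P (-0.43, limma adjusted p = 0.0027), rose in iG+A (0.37, limma adjusted p = 0.0075), and had -0.24 in iGPA and -0.03 in iGfi1, neither called. Whether reads of these genes entered the values of Rb1 was not tested.

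Rbl1 encodes p107, which binds E2F4 and is itself under E2F control (Entrez 19650, chromosome 2, 156971629 to 157030270, minus strand). It had 1393 and 1462 normalized counts with Dox, against 1996 and 1752 without in iG+A, and 1289 and 1359 with Dox and 1575 and 1671 without in iGPA. The falls were small, -0.39 ± 0.09 (SE, log2; limma adjusted p = 0.00286) in iG+A and -0.29 ± 0.09 (limma adjusted p = 0.0156) in iGPA, and were lost without untreated replicate 1 in iG+A (limma adjusted p = 0.0516) and without untreated replicate 2 or Dox replicate 1 in iGPA (limma adjusted p = 0.109 and 0.0999). Against the pooled untreated control the value in iG+A was -0.19 (limma adjusted p = 0.113), and iP+A was called (-0.31, limma adjusted p = 0.0157). Fold changes in the other lines ran from -0.09 to 0.14. Over all lines the 8 Dox libraries with Atoh1 had 1289 to 1602 normalized counts of Rbl1 and the 6 without it 1623 to 1890. These ranges did not overlap, but the gap between them was narrow. The untreated libraries, at 1316 to 1996, overlapped with both.

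For Rbl1 the mean difference with Atoh1 was -0.32 ± 0.08 (limma adjusted p = 0.00428) and that for Gfi1 -0.24 ± 0.08 (limma adjusted p = 0.0221). The latter missed the threshold after rescaling by the 75th percentile (limma adjusted p = 0.052) and was -0.05 against the pooled untreated control.

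Rbl2 encodes p130, the pocket protein most abundant in resting cells, where it binds E2F4 and the MuvB core in the DREAM complex (Entrez 19651, chromosome 8, 93593956 to 93647743, plus strand). In iGfi1 it had 769 and 632 normalized counts with Dox, against 484 and 419 without (0.63 ± 0.17 SE, log2; limma adjusted p = 0.0126), and in iG+P 601 and 583 with Dox and 350 and 442 without (0.59 ± 0.17, limma adjusted p = 0.0138). In both lines the Dox libraries were the higher ones. The call in iGfi1 was lost without untreated replicate 2 (limma adjusted p = 0.114) or Dox replicate 1 (limma adjusted p = 0.149), and that in iG+P without untreated replicate 1 (0.42, limma adjusted p = 0.164), Dox replicate 1 (limma adjusted p = 0.0677) or Dox replicate 2 (limma adjusted p = 0.051), and against the pooled untreated control (0.31, limma adjusted p = 0.177).

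In the lines that carry Atoh1 with Gfi1, Rbl2 was not called. The values were 564 and 533 normalized counts with Dox, against 810 and 557 without in iG+A (-0.29, limma adjusted p = 0.195), and 471 and 577 with Dox and 418 and 454 without in iGPA (0.26, limma adjusted p = 0.24). In iG+A the value was called without untreated replicate 2 (-0.56, limma adjusted p = 0.0282) and after quantile normalization (-0.48, limma adjusted p = 0.0315). The mean difference for Atoh1 was -0.49 ± 0.14 (limma adjusted p = 0.0141), but -0.23 and not called against the pooled untreated control (limma adjusted p = 0.203). Exons of Rbl2 overlap those of Aktip by 693 bases on the opposite strand, and Aktip moved by -0.85 in iGfi1, -0.50 in iG+P and 0.22 in iGPA on the log2 scale. Whether reads of Aktip entered the values of Rbl2 was not tested.

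**Figure D3:**
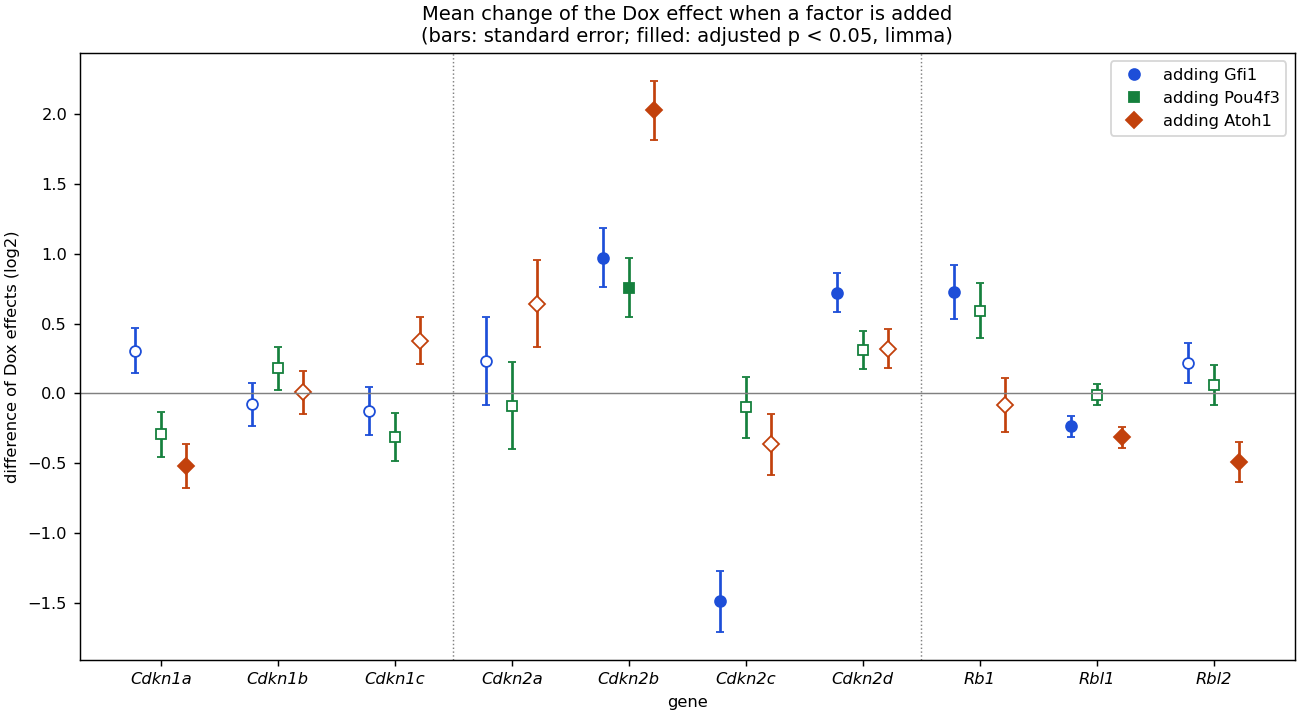
Mean difference of Dox effects (log2, with its standard error) between lines that differ by Gfi1 (blue circles), Pou4f3 (green squares) or Atoh1 (orange diamonds), for each of the 10 genes, filled at a limma adjusted p under 0.05. The orange diamond of Cdkn2b at 2.03 is the highest value and the blue circle of Cdkn2c at -1.49 the lowest.

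Counted over the 10 genes, the differences for Gfi1 were called for 5 (Cdkn2b, Cdkn2d and Rb1 upward, Cdkn2c and Rbl1 downward), where 34.0% of all genes were called (17.7% upward and 16.3% downward). Those for Atoh1 were called for 4 (Cdkn2b upward, Cdkn1a, Rbl1 and Rbl2 downward) against 30.6% (17.4% and 13.2%), or for 5 with the replicate block, and those for Pou4f3 for 1 (Cdkn2b) against 11% (6.91% and 4.07%), or for 3 with the replicate block. Between iGPA and iAtoh1, the pair of lines at the centre of the study, 4 of the 10 genes differed in their Dox effect, against 20% of all genes (11.6% upward and 8.42% downward). They were Cdkn2b with 2.26 ± 0.37 (SE, log2; limma adjusted p = 0.000254), Cdkn2c with -1.56 ± 0.38 (limma adjusted p = 0.00667, or 0.0526 in a fit of only the groups compared), Cdkn2d with 1.09 ± 0.24 (limma adjusted p = 0.00312) and Rb1 with 1.25 ± 0.34 (limma adjusted p = 0.0132). The value of Rb1 was not called without Dox replicate 2 of iAtoh1 (1.03, limma adjusted p = 0.073) or untreated replicate 1 of iGPA (1.10, limma adjusted p = 0.0595). A difference of at least 1.5 in size was found for Cdkn2b and Cdkn2c between these lines (9.03% of all genes), for Cdkn2b with Atoh1 (5.13%), and for no member with Gfi1 (7.91%) or Pou4f3 (2.72%).

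Untreated EBs of the 7 lines, collected at day 6 as the Dox cells were, differed in 4 of the 10 genes by limma's moderated F test, which called 12.1% of all genes. For Cdkn2b (limma adjusted p = 0.00298) untreated levels ran from 21.6 in iGPA to 90.9 in iP+A, for Cdkn2a (limma adjusted p = 0.00849) from 39.2 in iG+P to 376 in iP+A, and for Rb1 (limma adjusted p = 0.00747) from 609 in iG+P to 2558 in iG+A. Cdkn1a was at the threshold (limma adjusted p = 0.0492), with 3278 in iG+P to 7469 in iG+A. Leaving out untreated replicate 1 of iG+P took both Cdkn2a (limma adjusted p = 0.0705) and Cdkn1a (limma adjusted p = 0.112) over the threshold, and that of Cdkn1a was lost without most other libraries too. With the replicate block, Cdkn1c (limma adjusted p = 0.0116) and Rbl2 (limma adjusted p = 0.0331) were called as well. Without untreated replicate 2 of iG+A, Rbl1 (limma adjusted p = 0.0382) and Rbl2 (limma adjusted p = 0.0195) were called, Rbl1 also without either Dox replicate of iGfi1 and Cdkn1c without untreated replicate 2 of iAtoh1 (limma adjusted p = 0.0439).

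D cyclins activate CDK4 and CDK6, the kinases that INK4 proteins bind. In iGPA, where 46.0% of all genes were called, none of Ccnd1, Ccnd2, Ccnd3, Cdk4 and Cdk6 was called by limma. Their values were -0.64, -0.59, -0.44, -0.23 and 0.02 on the log2 scale. Ccnd3 and Cdk4 were near the threshold (limma adjusted p = 0.069 and 0.0693), and the replicates of untreated Ccnd1 were far apart, at 2101 and 885 normalized counts. Of these 5 genes 2 fell in iG+P, Ccnd1 (-2.13) and Cdk6 (-1.12), where 16.9% of all genes fell. Ccnd2 (-1.38) fell in iP+A (11.1% of all genes) and Ccnd3 (-0.51) in iG+A (19.7%). None of the 5 was called in iAtoh1, iGfi1 or iPou4f3, where 23.1%, 26.5% and 4.72% of all genes were called.

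**Figure D4:**
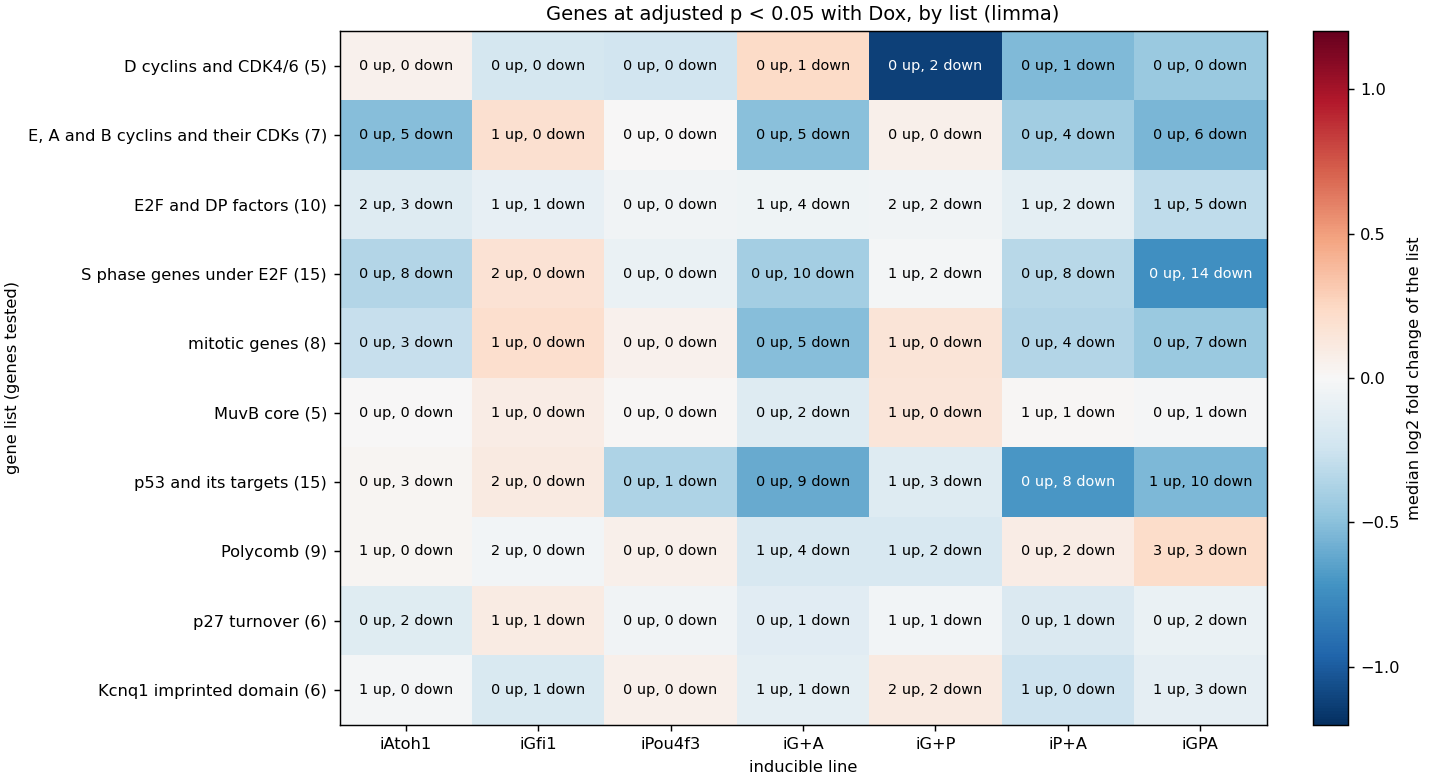
Lists of genes around the CDK inhibitors and Rb family (vertical axis, number of genes tested in parentheses) in the 7 lines (horizontal axis), with the number of genes called up and down by limma in each cell and the median log2 fold change as colour. The S phase genes have 14 of 15 down in iGPA and 0 called in iPou4f3.

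Pocket proteins hold genes of S phase in check through E2F. Of 15 S phase genes under E2F, 14 fell and 0 rose in iGPA (median -0.73, against 0.01 over all genes, of which 22.3% fell), 10 fell in iG+A (19.7% of all genes), 8 in iP+A (11.1%) and 8 in iAtoh1 (11.7%), and 0 rose in these lines. In iGfi1 0 fell and 2 rose, in iG+P 2 fell and 1 rose, and in iPou4f3 limma called 0. Among those that fell in iGPA were Cdc6, a licensing factor of replication origins (-1.0), and Tk1, thymidine kinase (-0.89).

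Of the 7 E, A and B cyclins with CDK1 and CDK2, 6 fell in iGPA, 5 in iG+A, 5 in iAtoh1 and 4 in iP+A, against the same shares of all genes, and 0 in iGfi1, iG+P and iPou4f3, with 1 rising in iGfi1. The median was -0.55 in iGPA, -0.50 in iG+A, -0.51 in iAtoh1 and -0.42 in iP+A, and in iP+A Ccne1 (-0.22) and Ccne2 (-0.28) were not called. Ccne1, the partner of CDK2 at S phase entry, fell by -0.92 in iGPA, Ccne2 by -0.81 and Ccna2 by -0.67. Of 8 mitotic genes, 7 fell in iGPA, among them Birc5 (-0.78), Mki67 (-0.73) and Top2a (-0.51), 5 in iG+A, 4 in iP+A and 3 in iAtoh1, whereas in iGfi1 1 rose, Mki67 (0.42), and in iG+P 1 rose. In the differences for Atoh1, 12 of 15 S phase genes, 7 of 7 of these cyclins and kinases and 8 of 8 mitotic genes fell, where 13.2% of all genes did. In those for Gfi1 3, 2 and 1 fell, near the 16.3% of all genes.

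Of 10 E2F and DP factors 5 fell and 1 rose in iGPA, where 22.3% of all genes fell and 23.7% rose. The repressors E2f8 (-1.17) and E2f7 (-0.76) fell, and Tfdp2, a dimer partner of E2F, rose by 1.29. Of the 5 MuvB core genes, partners of Rbl1 and Rbl2 in DREAM, 1 fell in iGPA, Lin54 (-0.40), a share near that of all genes. Of 6 genes of p27Kip1 turnover, 2 fell and 0 rose in iGPA, and these were Skp2 (-0.71), the F-box protein that marks p27Kip1 for degradation, and its cofactor Cks1b (-0.47). Skp2 also fell in iGfi1 (-0.42), iG+A (-0.24), iG+P (-0.53) and iP+A (-0.30).

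The list of p53 and its targets, to which Cdkn1a belongs by function but was not counted, had 10 of 15 down and 1 up in iGPA (22.3% and 23.7% of all genes), 9 down in iG+A (19.7%) and 8 in iP+A (11.1%). In iAtoh1 3 fell (11.7% of all genes), in iPou4f3 1 fell (1.31%), in iG+P 3 fell and 1 rose (16.9% each way), and in iGfi1 2 rose (12.4%). In iGPA Gdf15 (-1.44) and Sesn2 (-1.21) fell, while Pmaip1, which encodes the BH3 protein Noxa, rose by 1.73. Among 9 Polycomb genes, of which the Cdkn2a and Cdkn2b locus is a known target, 3 rose and 3 fell in iGPA, close to the shares of all genes, with Cbx8 (-1.17) and Eed (-0.47) down and Cbx7 (0.77) up. In the Kcnq1 imprinted domain that holds Cdkn1c, 1 of 6 other genes rose and 3 fell in iGPA. They included Kcnq1 (1.82), Phlda2 (-2.83) and Slc22a18 (-1.04), while Cdkn1c itself was not called there. Phlda2 also fell in iG+A (-3.34), where Cdkn1c rose, and in iG+P (-2.31), where it fell.

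The cell populations differed between Dox and untreated samples and between lines, and in these bulk samples fewer cells of a type and less RNA per cell cannot be told apart. Counts of called markers stand against the shares of all genes that rose, 23.7% in iGPA, 21.6% in iG+A, 13.8% in iP+A, 16.9% in iG+P, 12.4% in iGfi1, 11.4% in iAtoh1 and 3.41% in iPou4f3, and the shares that fell, 22.3%, 19.7%, 11.1%, 16.9%, 14.1%, 11.7% and 1.31% in the same order. Of 10 fibroblast markers 8 fell and 1 rose in iGPA, 6 fell in iG+P, 6 fell and 1 rose in iG+A and 5 fell in iGfi1, while 3 fell in iAtoh1, 3 fell and 1 rose in iP+A and 0 were called by limma in iPou4f3. Their summed level was 11230 to 51450 normalized counts in the 8 Dox libraries with Gfi1, 34090 to 134000 in the 6 without it and 55560 to 177400 in the 14 untreated libraries. Germ layer markers summed to 5991 to 11910 in the 8 Dox libraries with Gfi1, which overlap neither with the 29550 to 60230 of the 6 without it nor with the 21320 to 55910 of untreated libraries. Of 9 such markers 5 fell and 1 rose in iG+P, 4 fell and 1 rose in iGfi1, 2 fell and 1 rose in iG+A, and 1 fell and 2 rose in iGPA. Hand1, a bHLH factor of early mesoderm and trophoblast, fell in all 4 lines with Gfi1, by -2.51 in iGfi1 and -3.49 to -3.56 in the others. Hand1 made up most of the germ layer sum in untreated EBs of iGPA, with 35930 and 25800 of 32080 to 42180 normalized counts, and the median over the list was 0.03 in iG+A and 0.23 in iGPA, where Sox1, a factor of early neural cells, rose by 5.86 and 5.31. Hand1 fell, and 5 to 8 of the 10 fibroblast markers, in the lines in which Cdkn2c fell and Cdkn2d rose, in 3 of which Rb1 rose too, and their part in those results was not tested.

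All 8 neuronal markers rose in iGPA and in iP+A, 4 in iAtoh1, 3 in iG+A, 2 in iG+P and 2 in iPou4f3, with sums of 7356 and 7418 in iGPA, 17300 and 23320 in iP+A and 399 to 1310 in untreated libraries. Of 6 HC markers 5 rose in iGPA, 4 each in iG+A and iG+P, 3 in iP+A, 2 in iGfi1 and 1 each in iAtoh1 and iPou4f3. Blood markers summed to 66640 to 491500 in untreated libraries and 13330 to 359500 with Dox, and of 9 markers 6 fell in iAtoh1, 7 in iG+A and 6 in iP+A, 4 fell and 1 rose in iGPA, 2 fell and 3 rose in iG+P, and 3 rose in iGfi1. Sums of dissociation stress genes overlapped widely, at 30280 to 162500 untreated and 27470 to 162000 with Dox, with 2 of 10 falling in iG+A (median -0.98) and 0 called by limma in the other lines, although all 10 were lower with Dox in iPou4f3 (from -2.18 to -0.53, median -1.12). Cdkn1a was lower with Dox in both of these lines, and also in iP+A, where the stress genes ran from -0.78 to 0.82 (median -0.12). In iGfi1 all 10 stress genes were higher with Dox (from 0.25 to 1.34, median 0.72), and so was Cdkn1a (0.45, not called). Of 6 endothelial markers 5 fell in iG+P (median -1.18), where Cdkn1c fell, and 2 rose and 1 fell in iG+A, where Cdkn1c rose. In iGPA 2 markers rose and 1 fell as well, but Cdkn1c had -0.27 there and was not called. In iGfi1 3 fell, in iAtoh1 2 fell and in iP+A 2 fell and 1 rose. Of 8 pluripotency markers 5 fell in iP+A, 3 in iG+A, 3 in iGPA and 1 each in iAtoh1, iGfi1 and iG+P. No marker of these lists was at 0 in every library, and the part of any of them in the results for the 10 genes was not tested.

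Likeness of pattern was measured as the root mean square difference between centred log2 profiles over the 14 groups, with 3 genes named for each member. Nearest to Cdkn2c, whose own profile spread by 0.74 around its mean, were Ppfibp1 (0.12), Pygo1 (0.16) and Mxra8 (0.16). Nearest to Cdkn2d (0.35) were Spsb2 (0.09), Rnasek (0.12) and Rhbdl1 (0.13), and nearest to Rb1 (0.53) Mindy2 (0.20), Mdm1 (0.20) and Crim1 (0.21). Cdkn2b had no close match for its spread of 1.04, the nearest being Tcim (0.45), Thsd7a (0.45) and Kank4 (0.47), and the same held for Cdkn2a (0.82) with Endou (0.48), Colgalt2 (0.53) and Mup14 (0.53).

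The profile of Cdkn1a (0.31) was nearest to that of Mdm2 (0.14), which encodes the ubiquitin ligase of p53, followed by Spty2d1 (0.15) and Itga11 (0.17). For Cdkn1b (0.20) the nearest were Rmnd5a, Aldh6a1 and Taf8 (0.11 to 0.12), for Cdkn1c (0.37) Rhoc, Ghdc and Wipf1 (0.19 to 0.21), for Rbl1 (0.15) Asf1a, Naa15 and Klhl12 (0.06 to 0.07) and for Rbl2 (0.24) Lemd3, Gm2012 and R3hdm1 (0.14). None of the nearest genes was another member.

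Promoter entries matched 8 of the 10 genes with 11 starts, and Cdkn1c and Rb1 are named only. Their median GC content was 62.0%, against 52.67% over all 32851 entries. CAGCTG, the E-box form often bound by Atoh1-like factors and a subset of CANNTG, was found at start 1 of Cdkn1a and in Rbl1, against 16.3% of all entries. The E2F core TTTCCCGC occurred at 1 of the 2 starts of Cdkn2a (1.07% of all entries) and TTTGGCGC at none (0.51%). AAATCA was in none of the 11 windows.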

How the data were processed

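Bulk RNA-seq of 28 libraries (14 groups of 2) was used as 1 deposited table, which lists 19421 genes under their Entrez IDs, with values on the scale log2(normalized count + 1). Per the labels and the methods, the authors made these log2 values by trimming with cutadapt, pseudo-aligning to mm9 transcripts of the UCSC knownGene set with Kallisto, summing to genes with tximport and normalizing with DESeq2. Versions and a strand setting were not given in the sources used here. Kallisto divides reads that fit several transcripts. Symbols came from a RefSeq table (19314 genes named, 107 not) and coordinates from the NCBIM37 annotation.

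Depth was estimated from the value of 1 read, 0.816 to 1.22 normalized counts. In each library 72.4% to 79.4% of the low values (at most 20) were whole multiples of it to within 0.05, so that whole reads were not recovered and no count test was run. Counting error is therefore part of the spread between the 2 replicates, which are different clones.

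The 16837 genes that reached 10 normalized counts in 2 or more libraries entered a fit with limma 3.58.1 in R 4.3.3, all 14 groups together, with a variance trend and 14 residual degrees of freedom, two-sided. The fit was tested on simulated data. P-values were adjusted by Benjamini-Hochberg within each contrast. Replicate numbers were taken to pair Dox and untreated libraries, since the deviations of same-numbered libraries from their group means correlated across genes by 0.25 (iP+A), 0.24 (iAtoh1), 0.23 (iPou4f3), 0.16 (iG+A), 0.15 (iGPA), 0.13 (iGfi1) and 0.10 (iG+P). The labels do not say outright that equal numbers are the same clone.

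The 10 genes, the lists and the tests were chosen with earlier results of these data known. Named were all 10 genes, the D cyclins with Cdk4 and Cdk6, the transgenes, up to 3 genes of each other list with the largest called change in iGPA and no overlap of groups there, and the 3 nearest profiles of each called member. Genes that overlap the exons of a member were added after their values were seen. A gene that this rule names is not reported here.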

Additional observations from a re-analysis of the deposited data

Results flagged for a closer look

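The Dox effects of several genes differed between lines by a test of the difference itself (limma, log2 scale, adjusted over all genes tested). With Gfi1 added, the effect was higher for Cdkn2b by 0.97, for Cdkn2d by 0.72 and for Rb1 by 0.72, and the difference was -1.49 for Cdkn2c and -0.24 for Rbl1. With Pou4f3 added it was 0.76 for Cdkn2b. With Atoh1 added it was 2.03 for Cdkn2b, -0.52 for Cdkn1a, -0.32 for Rbl1 and -0.49 for Rbl2. Between iGPA and iAtoh1 it was 2.26 for Cdkn2b, -1.56 for Cdkn2c, 1.09 for Cdkn2d and 1.25 for Rb1. With the pooled untreated control, where Dox cells alone are compared, several of these were not called. They were Cdkn2b (0.04) and Rbl1 (-0.05) for Gfi1, Cdkn2b (0.48) for Pou4f3, and Cdkn1a (-0.32) and Rbl2 (-0.23) for Atoh1.

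These contrasts share libraries with each other, so the differences are not independent of one another. Groups of 2 libraries were too small for a check of single libraries within a group.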

How the results depend on the processing

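Alternatives were tried 1 at a time: the replicate block, pseudocounts of 0.5 and 5, a fit of only the groups compared, no filter on low values, no variance trend, rescaling to equal 75th percentiles, quantile normalization, an added size threshold of 1.5 on the log2 scale, each library left out, and, chosen after seeing the data, all 14 untreated libraries as one control group. Apart from leaving out a library and the pooled control, 850 of the fold changes recomputed for a gene and a contrast kept their direction and their side of the threshold, 17 lost the call and 13 gained it. With the pooled control Cdkn2a turned to -1.45 in iG+P and to -0.92 in the difference for Gfi1. That control cancels in a difference between lines, which then compares Dox cells alone.

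With the replicate block the number of called genes was 7 in iG+A, 2 in iAtoh1, 1 in iPou4f3, 6 in iGfi1, 3 in the differences for Pou4f3 and 5 in those for Atoh1, and besides the calls given beside the results in the report the block changed no other call. With a fit of only the groups compared it was 0 in iAtoh1, 3 in iG+A, 1 in iP+A and 1 across untreated lines, with far fewer libraries behind the spread. With the pooled control it was 2 in iGfi1, 5 in iP+A and 2 in the differences for Pou4f3. With the added size threshold of 1.5 it was 0 in iAtoh1, iGfi1, iG+P and iP+A, 2 in iG+A and in iGPA, 0 in the differences for Gfi1 and for Pou4f3, 1 in those for Atoh1 and 2 between iGPA and iAtoh1. The cause of these changes was not tested unless the alternative's own construction states it.

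When each library was left out in turn, the lone library being assumed to vary like the other groups, the number of called genes ranged from 0 to 2 in iAtoh1, 1 to 4 in iGfi1, 0 to 1 in iPou4f3, 3 to 6 in iG+A, 2 to 5 in iG+P, 1 to 2 in iP+A and 4 to 7 in iGPA. It ranged from 5 to 6 in the differences for Gfi1, 0 to 2 in those for Pou4f3, 4 to 6 in those for Atoh1, 3 to 4 between iGPA and iAtoh1 and 2 to 5 across untreated lines. With 2 libraries per group the median standard error of a Dox effect over all genes was 0.184, which limits what could be called for genes of that or a wider spread.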
